A study of Rattus norvegicus with 6 samples.

Results

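The genes that encode the cytosolic ribosome and the factors that run translation were compared between embryonic day 15 (E15) and adult choroid plexus of the rat. Members were chosen by name: 87 identifiers carried a name of a ribosomal protein, an initiation or elongation factor, a cytoplasmic poly(A) binding protein or a nucleolar protein, and 2 S6 kinase genes were dropped. This left 85 identifiers with 84 symbols (Rps2 was listed under a pair of identifiers), of 29479 in all. Names existed for 10093 identifiers, those that the authors had called different between the ages in these same libraries, so members were selected on the measured age difference. Their age differences are therefore given as a description, without a test of the members as a set. Calls of single genes repeat the comparison by which the members were selected. Ribosomal protein genes that were not called carry no name here and could not be counted.

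The samples were left and right lateral ventricular choroid plexuses of untreated Sprague-Dawley rats, with 3 pools at E15 and 3 from adults of 6 weeks, 10 animals in each pool and 1 library from each pool. No transgene, allele or agent was used at either age. Plexuses were taken whole, so each pool also held vessels, stroma and blood cells. Libraries held 17875089 to 19204440 counts. E15 replicate 1 stood apart from the other pools of its age, as rank correlations over genes (Spearman) were 0.979 and 0.982 to replicates 2 and 3 but 0.996 between those.

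The ribosome is built from a large and a small subunit, each a shell of proteins on ribosomal RNA. Nucleolar proteins process and modify that RNA and help to assemble the subunits. Initiation factors bring the small subunit to the capped end of an mRNA, elongation factors move the joined ribosome along it, and poly(A) binding proteins bind the tail of the mRNA. Many ribosomal protein mRNAs begin with an unbroken run of pyrimidines, the 5′ terminal oligopyrimidine tract, through which growth signals set how well they are translated. In the choroid plexus the adult epithelium makes large amounts of secreted protein, whereas the embryonic plexus is still growing.

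Start regions of the members were read from RefSeq promoters (rat build GRCr8, 250 bases before to 50 after the annotated start), since this run is what ribosomal protein genes are best known to share and the choice of members did not use it. Of 84 symbols 73 were matched, 3 of them through a synonym, giving 74 promoters. Shown are 30 bases before to 20 after the start for the 4 ribosomal protein genes of highest count that held a run within 5 bases of the start. Others shown are Rps23 with the longest run, Rpl3 and Rps6 as genes of high count without one there, and Eif2a, Eif4a1 and Eif4a2. Capitals mark the run of C and T, and each sequence reads 5′ to 3′ on the strand of the gene.
Rplp0, chr12:46718371-46718420, minus strand: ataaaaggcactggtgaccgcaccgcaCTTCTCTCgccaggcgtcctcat
Rpl19, chr10:83519034-83519083, plus strand: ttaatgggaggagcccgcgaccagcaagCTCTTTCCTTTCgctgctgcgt
Rps15, chr7:10068096-10068145, minus strand: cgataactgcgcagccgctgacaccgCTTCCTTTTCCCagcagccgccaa
Rps9, chr1:74430418-74430467, minus strand: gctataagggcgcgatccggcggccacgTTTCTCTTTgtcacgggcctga
Rps23, chr2:23814487-23814536, plus strand: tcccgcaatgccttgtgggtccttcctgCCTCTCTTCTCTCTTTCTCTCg
Rpl3, chr7:113507971-113508020, minus strand: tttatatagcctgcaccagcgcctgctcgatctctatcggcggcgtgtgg
Rps6, chr5:106420521-106420570, minus strand: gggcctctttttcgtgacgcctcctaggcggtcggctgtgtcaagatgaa
Eif2a, chr2:144911330-144911379, plus strand: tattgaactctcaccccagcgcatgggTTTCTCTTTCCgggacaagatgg
Eif4a1, chr10:54888583-54888632, minus strand: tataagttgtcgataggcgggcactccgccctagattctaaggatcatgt
Eif4a2, chr11:91275304-91275353, minus strand: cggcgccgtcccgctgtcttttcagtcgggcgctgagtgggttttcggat

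A run of at least 8 pyrimidines that began within 5 bases of the annotated start was held by 18 of 42 ribosomal protein promoters, or 42.9% (95% Wilson interval 29.1 to 57.8). Among all 33469 promoters the share was 4.70%. Of the 32 promoters of the other members 1 held a run, that of Eif2a, a factor that can deliver initiator tRNA. When the run could begin within 20 bases of the start, the shares were 73.8% of ribosomal protein promoters, 25.0% of the other members and 17.4% of all promoters. The small subunit genes Rps24 and Rps2, for example, held theirs only under the wider window, since their stretches began further before the annotated start. The stretch of pyrimidines printed for Rps6 began before the window of 20 bases as well.

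Other short elements were searched on both strands of the whole window. The ETS-type element CCGGAAG was held by 14 of 42 ribosomal protein promoters (33.3%) and by 12 of 32 promoters of the other members (37.5%), against 8.75% of all promoters. The GC box GGGCGG was held by 64.3% and 75.0% of these against 33.1% of all promoters. Among protein-coding promoters alone the shares were 10.7% for CCGGAAG and 41.8% for GGGCGG. The E-box CACGTG, a motif of Myc-type factors, was held by 3 of 42 and by 6 of 32, or 7.14% and 18.8%, against 6.42% of all. The TATA box TATAAA (14.3% and 9.38% against 14.2%) and the YY1-type element AAGATGG (7.14% and 3.12% against 7.01%) were held about as often as by all promoters in ribosomal protein genes. Among 25 promoters of mitochondrial ribosomal protein genes the run was held by 0 and AAGATGG by 36.0%. CCGGAAG was also held by 36.0% of these, about as often as by the members, and GGGCGG by 48.0%. These letters are a description of the windows and mark no binding.

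**Figure D1:**
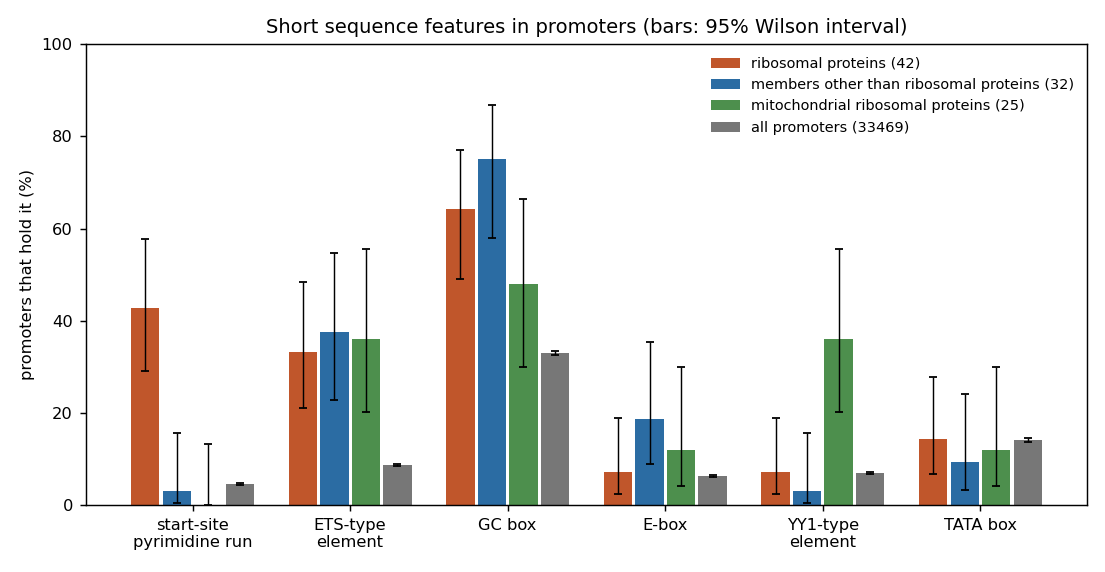
Share of promoters (%) that hold each sequence feature, for ribosomal protein members, the other members, mitochondrial ribosomal protein genes and all RefSeq promoters, with 95% Wilson intervals as bars. The pyrimidine run at the start site stands at 42.9% in ribosomal protein genes and 4.70% over all promoters. The GC box and ETS-type element are held more often by both member groups and by mitochondrial ribosomal protein genes than over all promoters.

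The age differences of ribosomal protein genes with and without a run within 5 bases of the start lay close together. Among the matched genes, 16 of 18 with it and 18 of 24 without it were called higher at E15. Their median log2 fold changes were 0.87 and 0.90. Within 20 bases of the start, 31 of 42 ribosomal protein promoters held a run. The 24 thus included genes with a run further out, and the comparison does not separate genes that lack one.

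Most of the named ribosomal protein genes were higher at E15. The genes grouped under initiation, which include some whose proteins restrain it, were divided between the ages, in shares near those of all named genes. All 85 members had more than 10 counts in all and were tested. Of these, 63 were called higher at E15 and 15 higher in adults (quasi-likelihood test of edgeR, adjusted p under 0.05 over all genes), where 34.7% and 29.3% of the 16643 genes tested were called in these directions. Among named genes, which share the members' selection, 50.6% and 42.2% were called. The median log2 fold change (E15 over adult, counts scaled by the TMM method) was 0.89 over members, a 1.86-fold difference, against 0.14 over all genes tested and 0.73 over named genes. The members with the smallest differences that were called were Rpl28 and Eif5a, each with a log2 fold change of 0.57. Normalised counts of the ages did not overlap for 62 members higher at E15 and 15 higher in the adult. This held for 38.0% and 32.1% of all genes, and for 5150 and 4240 of the 9958 named genes tested.

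The scaling sets where 0 lies, and a few genes filled much of the adult libraries: the 10 genes of highest mean count took 25.4% ± 1.65 (SD, n = 3 pools) of adult counts and 5.53% ± 0.577 at E15. With total counts as the only scaling, the median over all genes moved to 0.95 and that of members to 1.70, with 67 members called higher at E15 and 5 in the adult. Relative to the median of all genes, the members' median lay 0.75 higher with TMM scaling. The median of the named genes, which share the members' selection, was 0.73 with it, far closer to that of the members. Directions below are those with TMM scaling. Of the members called higher in the adult with it, Rpl3l, Eif2ak3, Eif4a2, Eif4e3 and Eef2k were still called so with total counts and the other 10 were not. The sign changed with total counts for 4 members, Rpl22l1, Rpl36al, Eif2a and Eif2ak1.

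**Figure D2:**
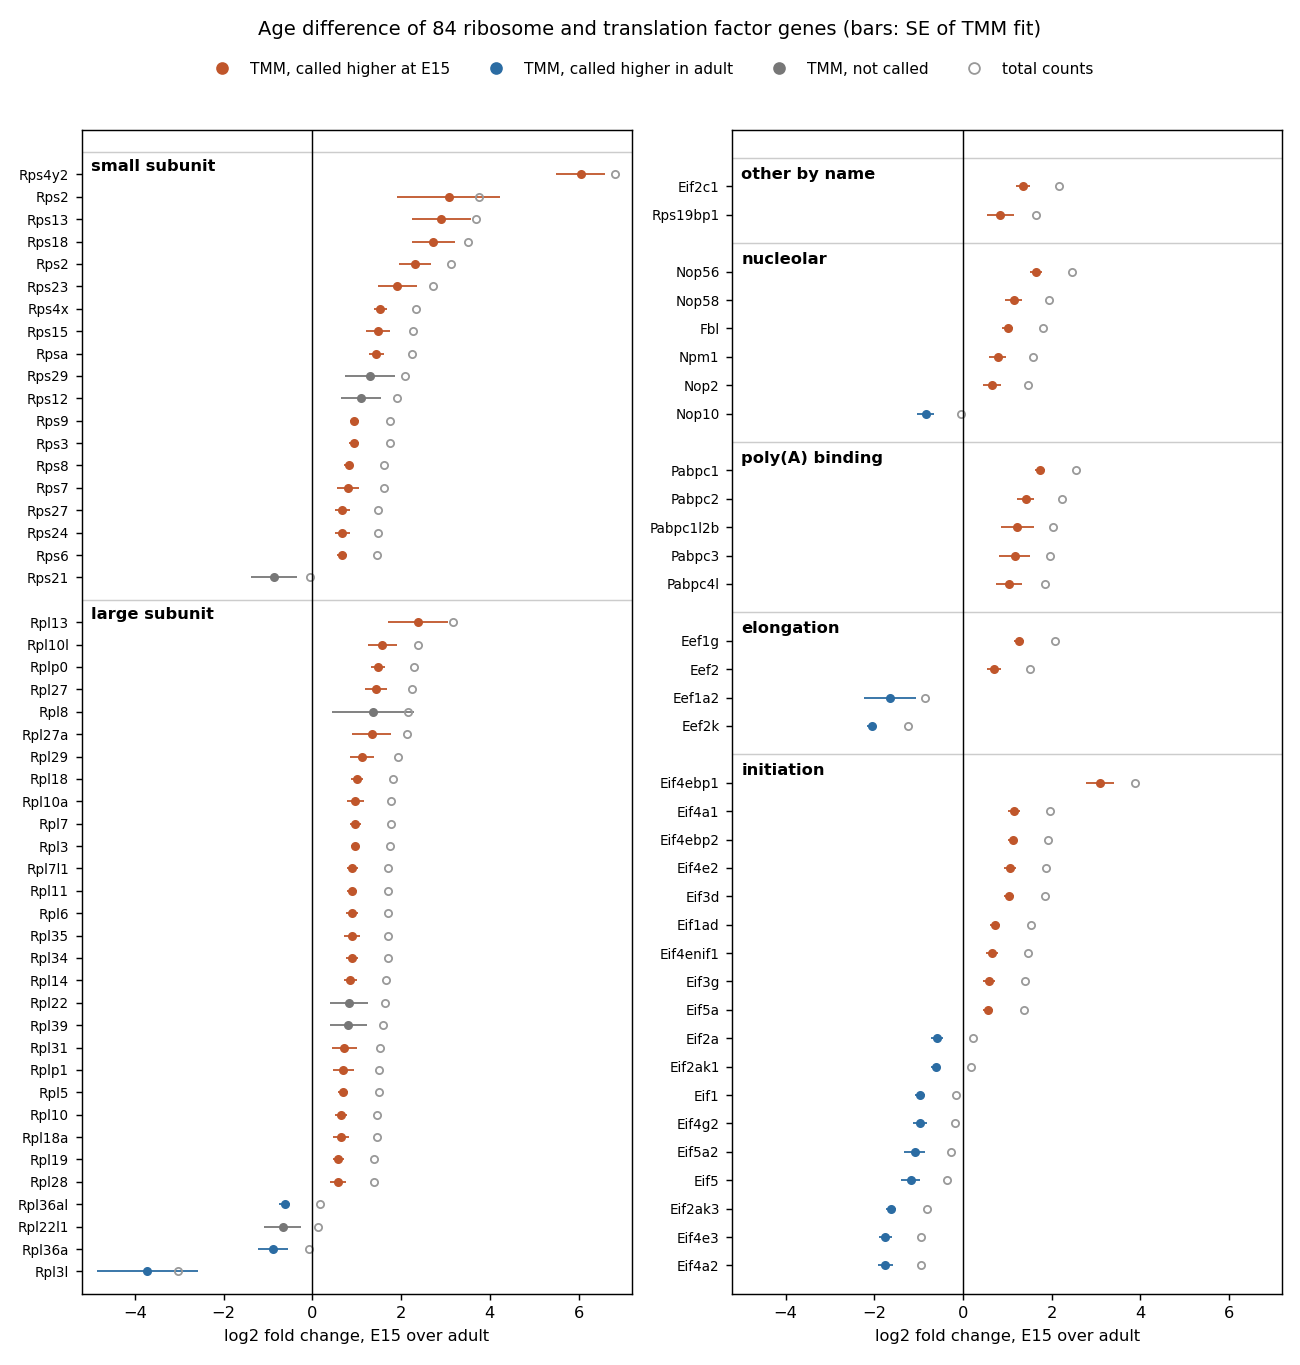
Log2 fold change (E15 over adult) of 84 of the 85 members by role, with filled points for TMM scaling (bars are SE of the fit) and open points for total counts. Ribosomal protein genes lie to the right of 0 apart from 5 genes, whereas 9 of 18 initiation genes lie on each side, and total counts move every gene to the right.

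Ribosomal protein members made up 0.430%, 0.492% and 0.512% of all E15 counts in replicates 1 to 3, and of all adult counts 0.139%, 0.150% and 0.142%. The lowest E15 pool, replicate 1, still held far more than the highest adult pool. The mean shares were 0.478% ± 0.0427 and 0.144% ± 0.00590 (SD, n = 3), a 3.32-fold difference. It was 2.63-fold when the 10 genes of highest count were left out of the totals. Both ratios include a shift towards E15 that the typical gene shared. Half-way down the ranking of every tested gene, log2 values stood at 0.95 with total counts and 0.60 without those 10 genes. With TMM scaling, the median of ribosomal protein members was 0.90, a 1.87-fold difference, against 0.14 for all tested genes. In these bulk pools, fewer cells of a type and less RNA per cell cannot be told apart. Markers of other cells differed between the ages as well. Summed normalised counts of the 8 named choroid plexus epithelium markers ran from 423167 to 524236 at E15 and from 3844820 to 4748000 in adults, so the labelled tissue was present at both ages. Ttr alone made up most of these sums, with means of 429569 at E15 and 3850320 in adults. All 8 markers were called higher in the adult. The 5 proliferation markers summed to 7795 to 9178 at E15 and 136 to 165 in the adult, and the 6 erythroid markers to 6182 to 8068 and 143 to 244. All named markers of endothelium (7 of 7), developing neurons (8 of 8) and neural progenitors (6 of 6) were also called higher at E15. Other lists were mixed. Of 8 mesenchyme markers 6 were called higher at E15 and 2 in the adult. Of 3 macrophage markers 1 was called each way, and of 4 oligodendrocyte markers 1 at E15 and 3 in the adult. The part of these cells in the results on translation genes was not tested.

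Of 30 large subunit genes, 23 were called higher at E15 and 3 in the adult, with a median log2 fold change of 0.89. Rpl3, a core protein of the peptidyl transferase region, held 9062, 9032 and 9298 normalised counts at E15, against 4644, 4919 and 4623 in adults. The pools of an age were nearly level and the ages far apart, with a log2 fold change of 0.95 ± 0.09 (SE). Rplp0, the base of the ribosomal stalk, held 6446, 9511 and 10062 at E15, against 3037, 3227 and 3051 in adults, and its lowest E15 pool was again replicate 1. Its log2 fold change was 1.48 ± 0.16. Rpl7 and Rpl10 were 1.96-fold and 1.57-fold higher at E15.

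Of 20 small subunit genes, the quasi-likelihood test of edgeR called 17 higher at E15 and 0 higher in adults (0 also at an unadjusted p under 0.05), with a median of 1.19. The exact test with a common dispersion called 1 higher in the adult, Rps21, as did the quasi-likelihood test without E15 replicate 1, whereas DESeq2 and limma-voom called 0. Rps6, the substrate of S6 kinase, held 7168, 5900 and 5735 normalised counts at E15, against 4057, 3722 and 4122 in adults. The ages did not overlap, and the log2 fold change of 0.66 ± 0.11 was one of the smaller ones in the subunit. Rps4x held 2621, 3598 and 3631 at E15 against 1124, 1107 and 1179 in the adult, a log2 fold change of 1.53 ± 0.14.

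Rps4y2, a paralog of the S4 protein gene, showed the largest fold change of all members. It held 144, 251 and 231 normalised counts at E15, against 0, 6.26 and 2.65 in adults, a log2 fold change of 6.04 ± 0.55. Rps4x and Rps4y2 encode near-identical proteins, and only reads with a single place in the genome were counted, so how reads were divided between them is uncertain.

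Several ribosomal proteins had few counts. Rpl8 held 10, 14 and 17 counts at E15, against 1, 0 and 8 in adults, and Rps13 held 16, 21 and 31 against 1, 1 and 3. Fewer than 100 counts in every library were also held by Rpl13, Rps12, Rps18 and Rps29, among others, although each encodes a single-copy part of the same particle as Rpl3. Ribosomal protein genes have many processed pseudogenes, reads without a unique place were discarded, and the part of this in the low counts was not tested. The second Rps2 identifier (ENSRNOG00000018121) held 4, 9 and 5 counts at E15, against 0, 1 and 0 in adults, whereas the first (ENSRNOG00000014179) held 179, 496 and 449 against 37, 43 and 50. Counts are not corrected for transcript length, so levels are not ranked between genes. The identifier named Rps27 is described by the authors' table as S27-like, so its match to the Rps27 promoter is uncertain.

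The ribosomal proteins that departed from the rest were mostly paralogs and genes of low count. Rpl36al, a retained copy of Rpl36a, held 531, 482 and 430 normalised counts at E15, against 742, 687 and 799 in adults, a log2 fold change of -0.63 ± 0.13 that became 0.18 with total counts. Rpl36a itself held 20.5, 22.3 and 32.5 against 40.9, 48.8 and 49.0, with no overlap, and was not called when any 1 library was left out. Rpl3l, the form of L3 known from skeletal muscle and heart, held 0, 1 and 0 counts at E15, against 2, 4 and 5 in adults, an 18.9-fold ratio with an exact 95% interval of 2.75 to 815 for counting error only. It was not called without E15 replicate 3 or any of the adult pools. These 3 were the only ribosomal protein members called higher in the adult with TMM scaling.

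The 7 members that were not called were Rpl8, Rpl22, Rpl22l1, Rpl39, Rps12, Rps21 and Rps29. A single pool set the spread of Rps21, which held 125, 30.4 and 33.3 normalised counts at E15, against 135, 95.1 and 113 in adults. Rpl22l1, the paralog that can stand in for Rpl22, behaved alike with 447, 151 and 137 against 327, 472 and 369. In both, E15 replicate 1 lay with the adult pools and the other E15 pools lay below them. Rpl39 (48.1, 29.7 and 27.2 against 15.0, 27.5 and 17.2) and Rpl22 (49.3 ± 19.6 against 27.8 ± 10.0) overlapped between the ages and Rps12 and Rps29 did not, and these 4 were called higher at E15 with total counts.

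E15 replicate 1 was lower in ribosomal proteins as a group. For members with a mean normalised count above 50, the log2 ratio of that pool to the mean of the other E15 pools had a median of -0.17 over 39 ribosomal proteins, 0.11 over 18 initiation genes and -0.39 over 4 elongation genes, against -0.02 over 12230 genes. Among ribosomal proteins the extremes were Rpl27a at -1.86, Rps2 at -1.32 and Rps15 at -1.04 on one side and Rps21 at 1.95 and Rpl22l1 at 1.63 on the other. Ratios past 1 in either direction were seen for 5 of 39 ribosomal proteins in this pool (12.8%) and for 4.96% of all genes. Without this pool 62 members were called higher at E15 and 15 in adults.

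**Figure D3:**
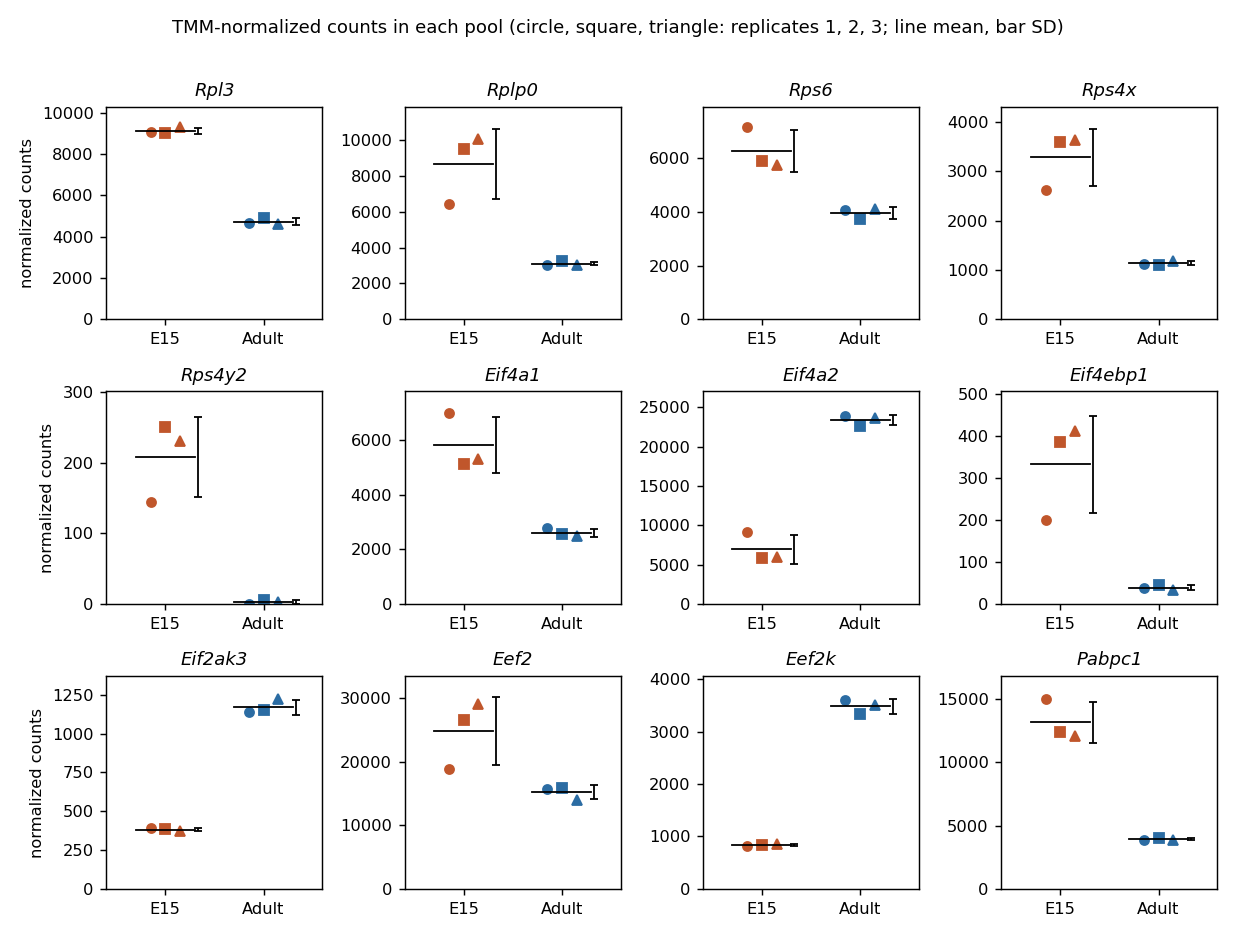
TMM-normalised counts of 12 members in each pool, on axes that start at 0 with E15 in orange and adult in blue; lines are means and bars SD (n = 3). Rps4y2 is close to 0 in the adult, Eif4a2, Eif2ak3 and Eef2k are higher in the adult, and E15 replicate 1 (circle) lies apart from replicates 2 and 3 in Rplp0, Eef2 and Eif4a1.

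The 18 initiation genes were split, with 9 called higher at E15 and 9 in the adult and a median log2 fold change of -0.01. These equal shares lay near the 50.6% and 42.2% called among all named genes, and with total counts the split was 9 and 3. Together they took 0.258% ± 0.0355 of counts at E15 and 0.231% ± 0.00430 in the adult, shares that differed by less than the spread between E15 pools, and 0.273% and 0.310% without the 10 genes of highest count. The clearest division was between the RNA helicases of the cap-binding complex. Eif4a1 (ENSRNOG00000030628) held 6994, 5150 and 5332 normalised counts at E15, against 2786, 2554 and 2503 in adults, 2.23-fold higher at E15. Eif4a2 (ENSRNOG00000001815) held 9106, 5806 and 5995 against 23930, 22672 and 23621, 3.36-fold higher in the adult. Neither gene overlapped between the ages.

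Ratios between related genes inside a library are free of scaling. The ratio of Eif4a1 to Eif4a2 counts was 0.768, 0.887 and 0.889 at E15, against 0.116, 0.113 and 0.106 in adults, a 7.58-fold change. These are ratios of counts, not of molecules, because the lengths of the transcripts were not used. Eif4e2 and Eif4e3 encode cap-binding relatives of eIF4E, and their ratio moved in the same way, from 2.47, 3.25 and 2.94 at E15 to 0.495, 0.403 and 0.336 in the adult. Eif4e3 itself held 363, 278 and 263 normalised counts at E15, against 943, 1027 and 1064 in adults. The ratio of Eif5a to Eif5a2, forms of the hypusine-containing factor, was 38.9, 36.5 and 37.7 at E15, against 11.2, 9.94 and 15.7 in adults.

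The named genes of eIF4E-binding proteins were higher at E15. Eif4ebp1, which holds eIF4E until mTOR phosphorylates it, held 200, 386 and 411 normalised counts at E15, against 38.2, 45.1 and 34.4 in adults, a log2 fold change of 3.08 ± 0.31. Replicate 1 was the lowest E15 pool, still far above the adult ones. Eif4ebp2 held 1662, 1591 and 1645 against 699, 780 and 778, a log2 fold change of 1.12 ± 0.11. The ratio of the first to the second was 0.121, 0.243 and 0.250 at E15, against 0.0547, 0.0578 and 0.0442 in adults.

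The named kinases that phosphorylate eIF2 and so restrain initiation, Eif2ak1 and Eif2ak3, were higher in the adult with TMM scaling. Eif2ak3 (PERK), the kinase of the unfolded protein response in the endoplasmic reticulum, held 393, 384 and 370 normalised counts at E15, against 1137, 1150 and 1226 in adults, 3.06-fold higher. Eif2ak1, the haem-regulated kinase, held 1160, 1118 and 1140 against 1654, 1747 and 1832, a log2 fold change of -0.61 ± 0.10 that became 0.19 with total counts. The ratio of Eif2ak1 to Eif2ak3 was 2.95, 2.91 and 3.08 at E15, against 1.45, 1.52 and 1.49 in adults. Eif4g2 (DAP5), a scaffold used for cap-independent initiation, held 8491, 5493 and 5838 at E15, against 12995, 12759 and 13255 in adults, but was not called with total counts. The start-codon factors Eif1 and Eif5 were also called higher in the adult, by log2 fold changes of -0.97 and -1.18 that became -0.16 and -0.37, not called, with total counts, and the eIF3 subunit gene Eif3d was 2.06-fold higher at E15.

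**Figure D4:**
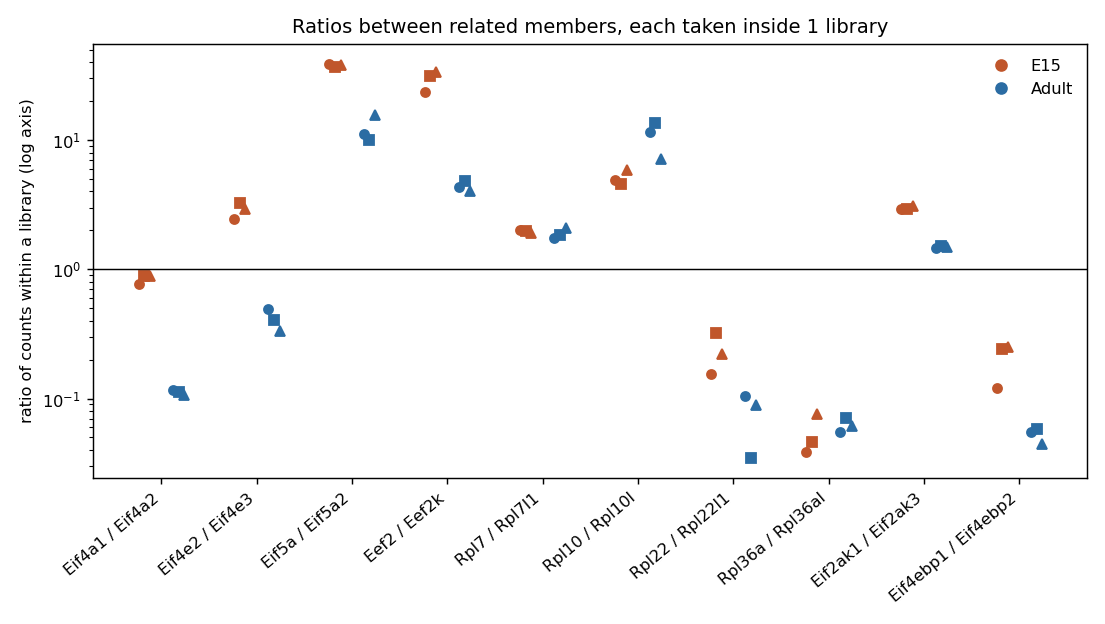
Ratio of the counts of 2 related members inside each library (log axis; circles, squares and triangles are replicates 1, 2 and 3), for 10 pairs. The Eif4a1/Eif4a2, Eif4e2/Eif4e3 and Eef2/Eef2k ratios are 6.67-fold to 7.58-fold apart between the ages, whereas Rpl7/Rpl7l1 and Rpl36a/Rpl36al overlap.

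Among the ribosomal protein pairs, the ratio of Rpl7 to Rpl7l1 ran from 1.91 to 2.03 at E15 and from 1.73 to 2.09 in adults, and so overlapped. The Rpl10 to Rpl10l ratio was 4.90, 4.57 and 5.84 at E15, against 11.5, 13.6 and 7.11 in adults, which means that the copy held a larger part of the pair's counts at E15. Rpl10l is a retained copy close in sequence to Rpl10, so this division is uncertain as well. The Rpl22 to Rpl22l1 ratio was 0.155, 0.320 and 0.221 at E15, against 0.104, 0.0345 and 0.0896 in adults.

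Elongation was represented by 4 genes. Eef2, the translocation factor and the member with the most counts, held 18901, 26548 and 29137 normalised counts at E15, against 15750, 15960 and 14054 in adults, a log2 fold change of 0.70 ± 0.15. Eef2k (ENSRNOG00000016448), the kinase that inactivates it, was the member with the largest called difference towards the adult among those above 100 counts. It held 809, 845 and 860 at E15, against 3604, 3335 and 3500 in adults, 4.15-fold higher. The ratio of Eef2 to Eef2k was 23.4, 31.4 and 33.9 at E15, against 4.37, 4.79 and 4.02 in adults.

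Eef1g, a subunit of the exchange factor that recharges eEF1A, was 2.4-fold higher at E15. Eef1a2, the eEF1A form of muscle and neurons, held 26.0, 36.4 and 37.8 normalised counts at E15, against 40.9, 219 and 54.3 in adults, so a single adult pool made most of its difference. It was not called without adult replicate 2, nor when any E15 pool was left out, nor with total counts. Summed counts of the 4 named oligodendrocyte markers were 5720, 1946 and 772 in adult replicates 1, 2 and 3. The developing neuron markers summed to 136, 435 and 123 in the same pools, and the part of these cells in the Eef1a2 value was not tested.

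All 5 poly(A) binding protein genes were called higher at E15, with a median log2 fold change of 1.23. Pabpc1, the main cytoplasmic form, held 14980, 12392 and 12062 normalised counts at E15, against 3888, 3987 and 3897 in adults, 3.35-fold higher at E15. The adult pools were almost level, and the lowest E15 pool held more than all of them. Pabpc2 (338 ± 36.6 against 127 ± 22.1), Pabpc3 (60.0 ± 19.9 against 26.7 ± 1.47) and Pabpc4l (94.5 ± 17.1 against 46.1 ± 13.5) had far fewer counts. Their sequences resemble Pabpc1, and the Pabpc1 to Pabpc2 ratio overlapped between the ages, from 36.1 to 40.7 at E15 and from 25.8 to 37.0 in the adult. The Pabpc1 to Pabpc3 ratio did not overlap, at 181, 242 and 262 at E15 against 142, 159 and 140 in adults. Nor did the Pabpc1 to Pabpc4l ratio, at 136, 162 and 125 against 63.3, 96.5 and 109, whereas that to Pabpc1l2b overlapped. Because of the resemblance in sequence, the smaller members cannot be taken as independent of Pabpc1. Pabpc1l2b (104 ± 37.8 against 44.2 ± 14.1) was not called when E15 replicate 2 or 3 or adult replicate 1 or 3 was left out, and Pabpc4l when adult replicate 3 was.

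Of 6 nucleolar genes, 5 were called higher at E15. Nop56 and Nop58 form the core of the particles that guide methylation of ribosomal RNA. Nop56 held 1388, 1340 and 1393 normalised counts at E15, against 364, 469 and 483 in adults, 3.13-fold higher, and Nop58 held 3343, 1971 and 2221 against 1296, 1030 and 1096. Fbl, the methyltransferase of the same particles, was 2.01-fold higher at E15, and Npm1, a chaperone of ribosome assembly, held 2198 ± 682 against 1280 ± 70.9. In Nop58 and Npm1 the high E15 pool was replicate 1, the opposite of Rplp0. Nop10, a protein of the pseudouridylation particles and of telomerase, held 200, 168 and 153 at E15, against 343, 263 and 331 in adults, and was not called with total counts.

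A pair of members fell in by name alone. Eif2c1 encodes Argonaute 1, which binds small RNAs, and was 2.56-fold higher at E15. Rps19bp1, a regulator of the deacetylase SIRT1 that binds RPS19, held 113 ± 37.2 against 63.2 ± 7.74 and overlapped between the ages.

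Genes of the mitochondrial ribosome were mostly higher in the adult with TMM scaling. Of 29 named mitochondrial ribosomal protein genes, 2 were called higher at E15 and 27 in the adult, with a median log2 fold change of -0.73 against 0.90 for the 50 cytosolic ones. With total counts these medians were 0.08 and 1.71 and the median of all genes 0.95. The mitochondrial median thus stayed below that of all genes and the cytosolic one above it, though single genes of both sets lay on the other side. Only 5 mitochondrial genes were then called higher in the adult. Both sets were selected by the authors' calls, and the difference between them was not tested.

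**Figure D5:**
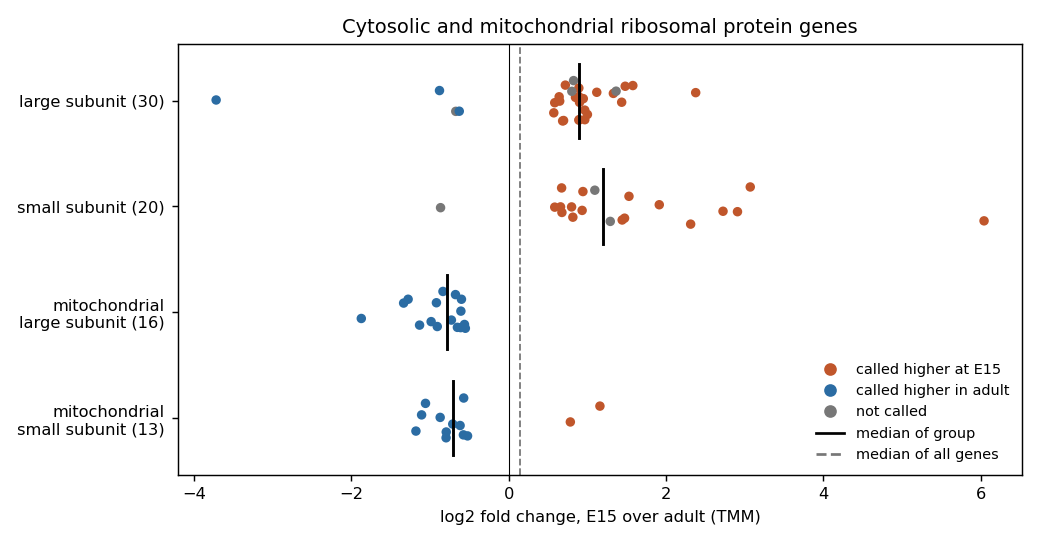
Log2 fold change (E15 over adult, TMM scaling) of each named ribosomal protein gene of the cytosolic and mitochondrial subunits, with the median of each group as a black line and that of all genes as a dashed line. Cytosolic medians lie at 0.89 and 1.19 and mitochondrial medians at -0.78 and -0.71.

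Genes that build or govern the ribosome were looked up in 7 lists, again only as far as they were named, and their counts stand beside the 50.6% and 42.2% of all named genes called towards E15 and the adult. Of 19 named ribosome assembly factors (50 listed), 15 were called higher at E15 and 4 in the adult (15 and 0 with total counts), with a median log2 fold change of 0.69. The highest were Tcof1, the treacle protein of ribosomal RNA transcription (1.59), and Nhp2 (1.53), a partner of Nop10 in the same particles, while Sbds (-0.97) and Nmd3 (-0.83), which act late on the large subunit, were called higher in the adult with TMM scaling only. Of 9 named genes of RNA polymerase I and its factors, 6 were called higher at E15 and 3 in the adult (6 and 1 with total counts), among them the largest subunit gene Polr1a (1190, 1318 and 1421 counts at E15 against 255, 302 and 249), and Cd3eap at -1.19 was the lowest. Of 8 named genes of the Myc and Max network, 6 were called higher at E15 and 2 in the adult (6 and 0 with total counts). This list included the largest differences. Mxd3 held 91, 148 and 180 counts at E15 and 0 in each adult library. Mycn held 349, 327 and 516 counts at E15, against 2, 0 and 3 in adults, and Myc 270, 235 and 232 against 7, 7 and 7. Max (-0.94) and Mlx (-0.83) were higher in the adult with TMM scaling and were not called with total counts.

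Among 13 named genes of mTOR and S6 kinase signalling, 7 were called higher at E15 and 5 in the adult (7 and 2 with total counts), close to the shares of all named genes. The amino acid sensing GTPase genes Rragd (-1.77) and Rraga (-1.13) were higher in the adult, and the S6 kinase gene Rps6kb2 (1.03) and Akt1s1 (0.98), an mTORC1 inhibitor, at E15. Of 8 named partners of poly(A) binding proteins and factors of recycling and rescue, 2 were called higher at E15 and 6 in the adult, but 2 and 1 with total counts, where Paip2 alone was still called higher in the adult. Paip2, which displaces poly(A) binding protein from mRNA, held 2769, 2559 and 2846 counts at E15, against 3461, 3291 and 3386 in adults, a log2 fold change of -1.10 opposite to that of Pabpc1. Of 9 named RNA-binding regulators, 6 were called higher at E15 and 3 in the adult (6 and 2 with total counts). Igf2bp1 (5.39) and Igf2bp2 (4.72), which bind and stabilise growth-related mRNAs, stood at one end and Cpeb1 (-3.18), a regulator of poly(A) tail length, at the other. Only 3 of 22 listed cytosolic tRNA synthetase genes had names, with Vars (1.52) and Farsa (0.70) higher at E15 and Nars (-0.73) in the adult, which turned to 0.08 and was not called with total counts.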

How the data were processed

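Whole-tissue RNA came from lateral ventricular plexuses of E15 and adult (6 weeks) rats, 3 pools at each age. The deposited counts are whole numbers per gene. To make them, the authors trimmed the reads, aligned these to Ensembl release 61 of the rat genome (Bowtie 0.12.7), kept only reads with a unique place and assigned them to nuclear genes (HTSeq 0.4.7p4). They carry no normalization. A second table of the authors served only for gene names. Its fold changes and p-values, from edgeR 2.4.0, were not used. Promoter sequences are those of RefSeq (GRCr8) and were matched by symbol or synonym.

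The age comparison used edgeR 4.0.16 (quasi-likelihood F-test, TMM factors, age as the only term) in R 4.3.3 on the 16643 genes with more than 10 counts in all, with Benjamini-Hochberg adjustment over all of them and a threshold of 0.05. Normalised counts are counts scaled to a library of 18566369. Nothing in the labels says more of the pools than that they were separate, so the spread between them may be partly technical. Pool ratios used a pseudocount of 0.5. Alternatives were other scalings and filters, DESeq2 1.42.0, limma-voom (limma 3.58.1), an exact test, a replicate block and each library left out. The scripts were tested on simulated data. Python 3.11.15, scipy 1.17.1 and matplotlib 3.10.9 were used.

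Members and lists were chosen with earlier results of these data known. Genes named were, in each role, the 2 of highest count and the 2 of largest change in each direction above 100 normalised counts without overlap, with all paralogs, all members not called and those of fewest and most counts. In the lists, up to 2 genes were named in each direction. Others named (Rpl13, Rps13, Rps18, Rpl27a, Rps15, Rpl28, Myc, Eif1, Eif5, Eif3d, Fbl, both members named by pattern alone and those of the printed promoters) were chosen after their values were seen. The values of 1 member are not reported here.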

Additional observations from a re-analysis of the deposited data

How the results depend on the processing

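Only named genes could be members, low counts limit the genes with under 100 counts, and 3 pools at each age set the precision. RLE factors, DESeq2, limma-voom, the filters and the exact test kept the number of members called within 1.5 times, from 60 to 68 towards E15 and from 14 to 17 towards the adult. With total counts, 5 members were called higher in the adult (9 when the 10 genes of highest count were left out of the totals), and over all genes 9799 were called higher at E15 and 2292 in the adult (3196 without those 10 genes).

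The median log2 fold change of members was 1.02 with upper quartile factors, 1.70 with total counts and 1.36 without those 10 genes. In the last pair of settings the medians were 1.70 and 1.36 for the large subunit, 1.995 and 1.66 for the small subunit, 0.80 and 0.46 for initiation, 2.03 and 1.69 for poly(A) binding and 1.70 and 1.36 for nucleolar genes. Initiation had 0.12 with upper quartile factors and between -0.068 and 0.014 with a library left out. The median of the 4 elongation genes was the least stable: 0.33 with total counts, -0.011 without the 10 genes, -0.35 with upper quartile factors, -0.30 with limma-voom, -0.31 with the replicate block, and from -0.683 to 0.078 with a library left out, the last without adult replicate 2, the pool with high Eef1a2 counts. Rpl22l1 (0.13), Rpl36al (0.18), Eif2ak1 (0.19) and Eif2a (0.22) reversed with total counts. The scaling itself moves these values.

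The adult share of ribosomal proteins was 0.193% without the 10 genes. Pyrimidine runs of at least 6 were held by 45.2% of ribosomal protein, 12.5% of other member and 12.0% of all promoters, and runs within 20 bases of the start by 73.8% of ribosomal protein, 25.0% of other member and 17.4% of all promoters. With each library left out, 54 to 62 members were called higher at E15 and 12 to 15 in the adult. Replicate numbers did not pair the pools (correlations of deviations from -0.06 to -0.01 for equal numbers), and with the replicate block 60 members were called higher at E15 and 14 in the adult.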
